A study of Phaseolus vulgaris with 2 samples.

Results

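PYL4 (Phvul.010G065400) is an abscisic acid receptor gene of common bean, Phaseolus vulgaris, and is 1 of the 27197 genes in the expression table. It was chosen by name, as the gene to which the study gave the symbol PYL4, with its change already known. The study drew that symbol from genes changed in these same data, so the high ranks of PYL4 below are descriptions and not independent evidence. The plants were wild-type Pinto Saltillo (PS), a drought-tolerant cultivar. The control group was kept watered, and the drought group, in which watering was stopped when plants were 45 days old, went 2 weeks with no irrigation. Aerial tissue was collected from both groups, with pools of 6 to 9 plants, and RNA was pooled by condition before sequencing. Each gene has 1 control value and 1 drought value in FPKM (a count of sequenced fragments per kilobase of a gene's transcript), a level corrected for transcript length and for sequencing depth. With 1 library value per condition there is no replicate check in these values and no p-value was computed, and each difference below is between these 2 pools of RNA. The study also examined PYL4 by semi-quantitative RT-PCR on RNA from separate experiments, in PS and in other cultivars, which was not analysed here.

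Abscisic acid is the hormone that plants make when water is short, and it closes stomata and switches on genes for water and osmotic balance. In Arabidopsis the receptors of the PYR/PYL/RCAR family bind the hormone inside the cell, and the bound receptor holds and blocks the clade A protein phosphatases 2C. The blocked phosphatases no longer switch off SnRK2 kinases, which then phosphorylate transcription factors of the ABF group and ion channels of guard cells. Receptors therefore act positively on the pathway and phosphatases negatively. In Arabidopsis, abscisic acid is also known to lower the transcripts of several receptor genes and to raise those of clade A phosphatases.

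PYL4 stood at 4.34 FPKM in the control library and at 117 FPKM in the drought library, a difference of 112 FPKM. The drought value was 26.9 times the control value, and the log2 ratio, computed on FPKM plus a pseudocount of 1, was 4.46. In control plants PYL4 was a gene of low level: 27.8% of the 19661 genes with at least 1 FPKM in either library had a lower control value, and the median of those genes was 11.6 FPKM. In drought plants 94.3% of them had a lower value, against a median of 11.5 FPKM and an upper quartile of 28.4 FPKM. PYL4 was thus below the median gene in control and above the upper quartile in drought. The tissue was pooled aerial parts, with trifoliate leaves, petioles and stems but without senescent primary leaves. In such a mix, more cells that express the gene and more RNA per cell cannot be told apart.

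By log2 ratio PYL4 took place 21 of the 19661 genes, and the whole set had a median of −0.03. At least 4-fold higher values in drought were found for 487 genes (2.48%) and at least 4-fold lower values for 318 genes (1.62%), and PYL4 was among the higher. All such fold counts are on the log2(FPKM + 1) scale, which understates the differences of genes near 0. Of the 20 genes with a larger ratio, 6 were under 1 FPKM in control, and only 2 started from a control level above that of PYL4. Its place depended on the pseudocount and was 72 with 0.1 and 158 with 0.01. Among the 126 genes at least 4-fold higher whose control level was at or above that of PYL4, it took place 3. Within a band of 1331 genes whose control FPKM was within 1.2-fold of that of PYL4, the other genes had a median of 4.62 FPKM in drought, and PYL4 took place 4 by drought value. The highest in that band, 565 FPKM, belonged to Phvul.009G227800.

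**Figure D1:**
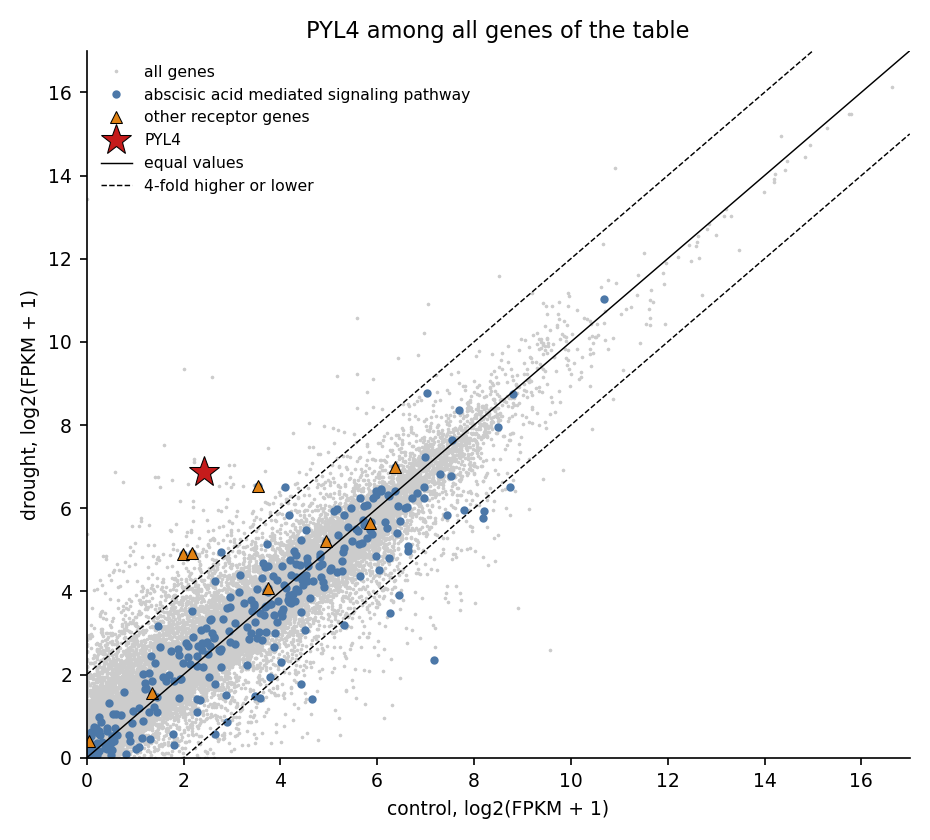
Each point is a gene, with its control level on the x axis and its drought level on the y axis, both as log2(FPKM + 1). PYL4, at 4.34 FPKM in control and 117 FPKM in drought, lies far above the diagonal of equal level, apart from the bulk of genes that started at its control level.

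The locus of PYL4 lies on chromosome 10, from 12809673 to 12810293 in the coordinates of the deposited table, a span of 621 bases, and no other locus of the table overlaps it. The genome build behind these coordinates was not settled, because the study's methods name a later annotation version than the one that ends the identifiers of the table. Reads per gene are not given, so the precision of the 4.34 FPKM is unknown. As a description of the low end of the scale, 36 genes with a locus within 3 bases of that length had a lowest value above 0 of 0.0480 FPKM in either library, and PYL4 stood at 90.4 times that value in control and at 2432 times in drought. On chromosome 10 its ratio took place 2 of 1135 genes. Of the loci beside it, Phvul.010G065300, with a xylan biosynthesis term, was under 1 FPKM in both libraries, at 0.0448 in control and 0.744 in drought, a plain ratio of 16.6 and a log2 ratio of 0.74 with the pseudocount of 1. Phvul.010G065500 on the other side was at 28.5 and 41.9 FPKM. Beyond these, Phvul.010G065200 was at 66.6 and 48.8 FPKM and Phvul.010G065600, with a ferric iron binding term, at 71.2 and 30.7 FPKM.

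The table gives PYL4 4 Gene Ontology (GO) terms, which are labels for what a gene product does and where: abscisic acid mediated signaling pathway, receptor activity, protein binding and nucleus. It led the first of these, with the highest ratio of 252 genes, a set with a median of −0.06 (0.03 and 0.04 when the libraries were scaled by upper quartile or by sum) in which 6 genes were at least 4-fold higher (2.38%, near the 2.48% of all genes) and 13 at least 4-fold lower (5.16%, against 1.62%). It also led the 32 genes of receptor activity, a set with a median of −0.12. In that set 4 genes were at least 4-fold higher (12.5%) and none lower, and these 4 are the abscisic acid receptors described below. In the broad terms PYL4 took place 3 of 1612 genes for protein binding and place 4 of 6415 genes for nucleus. PYL4 does not carry the term response to abscisic acid stimulus.

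The receptor list held 10 genes that carry both the signaling pathway term and receptor activity, after 2 genes with the same pair of terms and a histidine kinase term were set aside, Phvul.006G106400 at 3.87 and 3.65 FPKM in control and drought and Phvul.006G106300 at 2.86 and 2.73 FPKM. Of the 10, 9 had at least 1 FPKM in either library. Drought values were higher in 8 of these 9 and lower in 1, where 48.0% of all 19661 genes were higher. At least 4-fold higher values were found in 4 receptors and at least 4-fold lower values in none, against 2.48% and 1.62% of all genes. A 2-fold limit gave the same counts, 4 higher and 0 lower, against 11.7% and 6.6% of all genes. The median log2 ratio of the receptors was 0.64, and it was 0.48 without PYL4 and 1.69 over receptors with at least 5 FPKM in either library. PYL4, PYR1 and PYL5 got their symbols from a list that the study drew from genes changed in these same libraries, so their direction is not independent evidence.

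The 4 receptors at or past 4-fold all started below 11 FPKM. After PYL4 the next ratio belonged to PYR1 (Phvul.002G141900), named for the Arabidopsis receptor that is a dimer until the hormone binds, at 10.7 FPKM in control and 91.9 FPKM in drought (log2 ratio 2.99). Phvul.008G093500 followed at 2.94 and 28.8 FPKM (log2 ratio 2.92). PYL5 (Phvul.008G220600), whose Arabidopsis namesake is, like PYL4, a receptor that acts as a monomer, was at 3.53 and 29.3 FPKM (log2 ratio 2.74). PYL4 and PYL5 had similar control levels, and the drought level of PYL4 was the higher of the pair. Of these 4 receptors, PYR1 was the closest to PYL4 in drought level.

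Of the 6 other receptors, the 5 with at least 1 FPKM in either library differed by less than 2-fold. Phvul.010G112500, the most abundant receptor in control, was at 81.3 FPKM there and at 127 FPKM in drought (log2 ratio 0.64), and it was the only receptor above PYL4 in drought. Phvul.003G285500, the second most abundant in control, was the only one with a lower drought value, 48.9 FPKM against 56.4 FPKM (log2 ratio −0.20). Phvul.008G158300 was at 29.6 and 35.9 FPKM (log2 ratio 0.27), Phvul.009G077200 at 12.5 and 15.8 FPKM (log2 ratio 0.32), and Phvul.001G034300 at 1.55 and 1.94 FPKM (log2 ratio 0.21). In each of these 3 the drought value was slightly the higher. Phvul.001G246300 was under 1 FPKM in both libraries, at 0.0304 and 0.316 FPKM, a plain ratio of 10.4. Its log2 ratio rested on the pseudocount, at 0.35 with 1, 1.67 with 0.1 and 3.01 with 0.01.

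PYL4 shares its exact set of 4 terms with 3 other receptors, Phvul.008G093500, PYL5 and the nearly silent Phvul.001G246300. The 3 of this set that passed the 1 FPKM minimum were all at least 4-fold higher, but PYR1, which was too, has another set of terms that includes abscisic acid binding. That binding term is also carried by Phvul.010G112500 and Phvul.003G285500, the 2 receptors most abundant in control. Short loci were found on both sides: PYL4 spans 621 bases, PYR1 659 bases and Phvul.008G093500 576 bases, while Phvul.009G077200 and Phvul.001G034300 span 564 bases each. PYL4 and Phvul.010G112500 are the only receptors on chromosome 10, and their loci lie far apart, at 12809673 and 37653248.

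**Figure D2:**
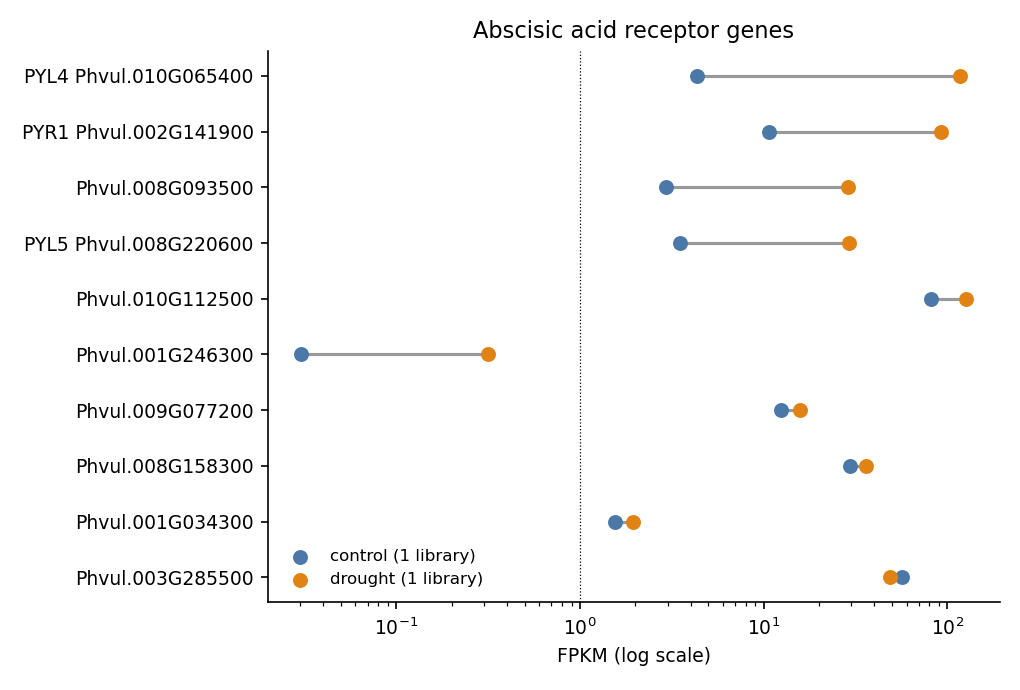
The 10 receptor genes are shown with their control and drought levels in FPKM on a log axis, 1 library each, joined by a line. PYL4, PYR1, Phvul.008G093500 and PYL5 have the longest lines among receptors above 1 FPKM (dotted line), while Phvul.003G285500 is the only one whose drought point lies to the left of its control point.

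The order of receptors by level changed between the libraries, which can be set side by side because FPKM is corrected for length. PYL4 was 6th of 10 in control, after Phvul.010G112500, Phvul.003G285500, Phvul.008G158300, Phvul.009G077200 and PYR1, and 2nd in drought. Summed over the list, receptor transcripts came to 203 FPKM in control plants and to 497 FPKM in drought plants, a 2.45-fold difference. PYL4 held 2.14% of that sum in control and 23.5% in drought. Its own difference made up 38.2% of the net increase of 294 FPKM. The sum of the other receptors was at 198 and 380 FPKM, a 1.91-fold difference. In the same libraries Phvul.010G112500 held 40.1% of the sum in control and 25.6% in drought, and Phvul.003G285500 held 27.8% and 9.84%.

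The phosphatase genes annotated to the pathway were lower in drought or near their control level. The list held 12 protein phosphatase genes of abscisic acid signaling, of which 9 had at least 1 FPKM in either library. None was at least 4-fold higher and 3 were at least 4-fold lower (33.3%, against 1.62% of all genes), and the median log2 ratio was −1.53, or −0.77 with the 3 phosphatases under 1 FPKM included. The 6 that carry the term for negative regulation of the pathway were all lower in drought, where 52.0% of all genes were lower, with a median of −1.81. Phvul.001G075400, the most abundant of them, was at 295 FPKM in control and 59.9 FPKM in drought (log2 ratio −2.28). Phvul.008G231200 was at 173 and 56.2 FPKM (log2 ratio −1.61). Phvul.002G163900 was at 38.6 and 8.08 FPKM (log2 ratio −2.13) and Phvul.002G309100 at 10.2 and 1.8 FPKM (log2 ratio −2.0). The 2 that remain were Phvul.001G236000 at 64.8 and 21.7 FPKM (log2 ratio −1.53) and Phvul.003G134200 at 49.0 and 19.8 FPKM (log2 ratio −1.27). The phosphatases without that term differed less, with Phvul.006G088900 at 59.6 and 74.8 FPKM, Phvul.011G064200 at 9.65 and 10.6 FPKM and Phvul.008G259800 at 19.2 and 15.6 FPKM, and 3 more were under 0.2 FPKM.

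The summed levels of the receptors and of the 6 negative-regulator phosphatases thus differed in opposite directions. Among the 9 tested receptors, only 4 were at least 2-fold higher. The sum of the 6 was 631 FPKM in control, above the 203 FPKM of the receptors, and 167 FPKM in drought, below the 497 FPKM of the receptors. All 12 phosphatases of the list summed to 720 FPKM in control and to 269 FPKM in drought. The ratio of the receptor sum to the sum of the 6 was 0.321 in control and 2.97 in drought. That receptor sum includes PYL4, which was chosen with its change known. Without PYL4 the receptors summed to 198 FPKM in control and 380 FPKM in drought. These are ratios of transcript levels, and protein was not measured.

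**Figure D3:**
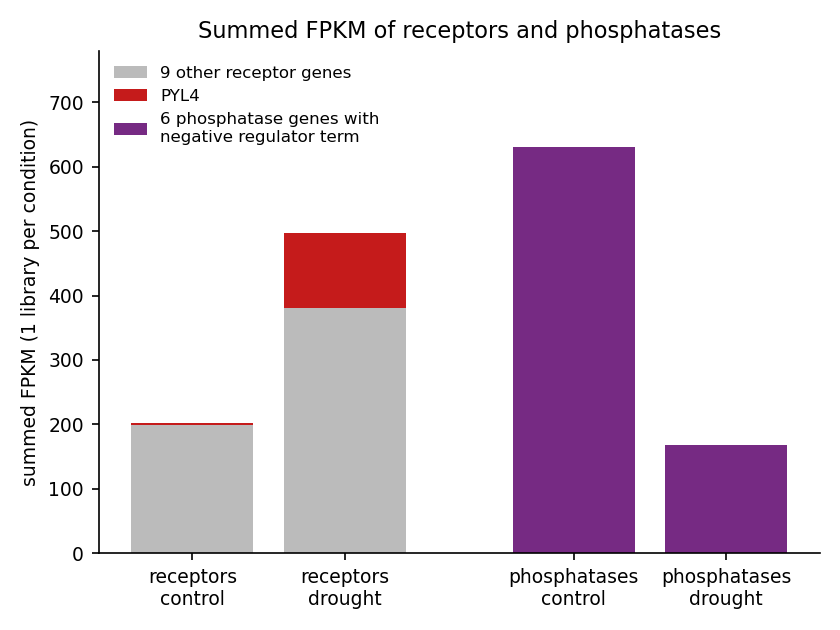
Bars that start at 0 give the summed FPKM of the receptor genes, with PYL4 stacked on the other 9, and of the 6 phosphatases with the negative regulation term, in the control and the drought library. The receptor bar stands at 203 FPKM in control and at 497 FPKM in drought, and the phosphatase bar at 631 and 167 FPKM.

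Kinases and transcription factors were spread on both sides of 0. Of 63 kinase genes tested, none was at least 4-fold higher and 2 were at least 4-fold lower (3.17%), against 2.48% and 1.62% of all genes, with a median of 0.09. The 2 were Phvul.008G259700, at 24.3 FPKM in control and 1.68 FPKM in drought (log2 ratio −3.24), and Phvul.006G069600, at 5.26 and 0.484 FPKM (log2 ratio −2.08). The kinases with a term for positive regulation of the pathway differed by less than 2-fold, with Phvul.002G279300 at 15 and 22.8 FPKM, Phvul.002G021600 at 27.1 and 28.8 FPKM and Phvul.003G247000 at 112 and 81.5 FPKM, while 2 more were under 1 FPKM. Of 46 transcription factor genes tested, 1 was at least 4-fold higher and 1 at least 4-fold lower (2.17% each, near the shares of all genes), with a median of 0.17 that became −0.06 with a minimum of 5 FPKM. The higher was Phvul.002G055700 at 5.81 and 29.8 FPKM (log2 ratio 2.17), and the lower was Phvul.005G084500 at 292 and 53.4 FPKM (log2 ratio −2.43).

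Of 10 tested genes that make the hormone, 6 were lower in drought and 4 higher, near the split of all genes, of which 52.0% were lower and 48.0% higher. The enzyme 9-cis-epoxycarotenoid dioxygenase makes the committed step towards abscisic acid. Of its 5 genes, NCED9 (Phvul.005G051600), another symbol from the study's list, was at 17 FPKM in control and 3.99 FPKM in drought (log2 ratio −1.85), and Phvul.011G211200 was at 330 and 238 FPKM (log2 ratio −0.47). The other 3 were at or under 0.5 FPKM, 2 of them listed at 0. The 3 zeaxanthin epoxidase genes, which act before that step, were all lower, with log2 ratios of −0.44 for Phvul.003G243800, −0.66 for Phvul.011G214600 and −1.36 for Phvul.002G018700. The xanthoxin dehydrogenase genes, which act after it, were higher instead: Phvul.005G031600 was at 36.3 and 81.0 FPKM (log2 ratio 1.14), Phvul.011G097200 at 122 and 160 FPKM (log2 ratio 0.39) and Phvul.005G031500 at 65.3 and 76.3 FPKM (log2 ratio 0.22). The aldehyde oxidase genes of the final step were Phvul.008G209900, at 28.9 and 19.6 FPKM (log2 ratio −0.54), and Phvul.008G210000, at 2.02 and 2.06 FPKM (log2 ratio 0.02).

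Breakdown, conjugation and transport genes were split, and none reached 4-fold on the log2(FPKM + 1) scale. On plain FPKM, CYP707A4, Phvul.003G192800 and Phvul.007G039500 were 11, 13.6 and 5.03 times their control values, and Phvul.004G138200 was at 0.222 times its control value. CYP707A4 and Phvul.003G192800 were under 1 FPKM in control and passed the minimum only through the drought library, which favours higher ratios. The share of all genes past 4-fold on plain FPKM was not computed. Among the 8′-hydroxylase genes, whose products inactivate the hormone, CYP707A4 (Phvul.001G022100) was at 0.261 and 2.86 FPKM (log2 ratio 1.61) and Phvul.002G122200 at 8.39 and 24.5 FPKM (log2 ratio 1.44). The other 3 tested were lower, with log2 ratios of −0.66 for Phvul.003G004800, −0.76 for Phvul.003G292200 and −1.17 for Phvul.003G278400, and 1 gene was listed at 0 in both libraries. Of the glucosyltransferase genes, Phvul.007G039500 was at 1.2 and 6.03 FPKM (log2 ratio 1.68) and Phvul.004G138200 at 12.8 and 2.86 FPKM (log2 ratio −1.84), and Phvul.007G039600 and Phvul.007G039400 had log2 ratios of 0.23 and −0.17. Of the transport genes, Phvul.001G221300 was at 3.69 and 12.8 FPKM (log2 ratio 1.55), Phvul.003G192800 at 0.143 and 1.94 FPKM (log2 ratio 1.36) and Phvul.007G088800 at 11.2 and 5.13 FPKM (log2 ratio −1.0). The other 3 transport genes tested lay between −0.26 and 0.20.

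**Figure D4:**
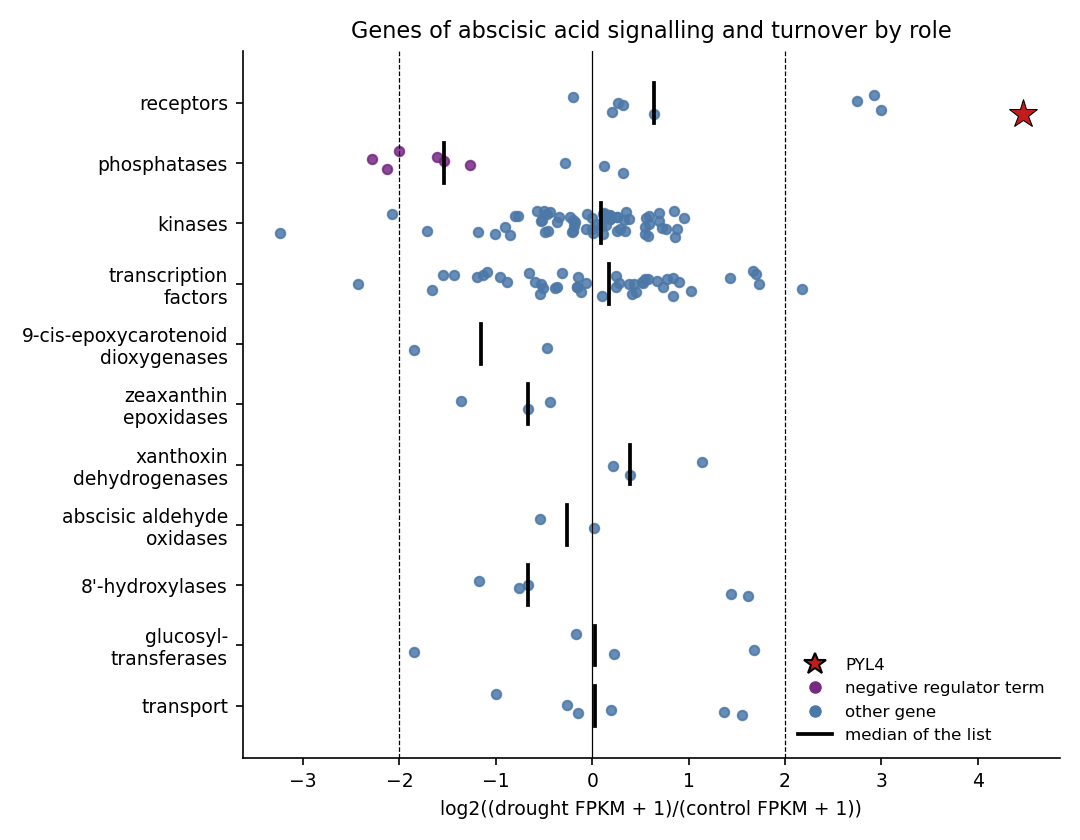
Each point is a gene of the abscisic acid pathway, placed by its log2 ratio of drought over control on the x axis and by its role in a row, where the vertical spread within a row has no meaning. PYL4 at 4.46 lies farthest to the right of all points, and the 6 phosphatases of the negative regulation term all lie left of 0.

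PYL4 was next ranked against the genes annotated to respond to the hormone. The term response to abscisic acid stimulus covers 613 genes, of which 475 were tested. At least 4-fold higher values were found in 8 of them (1.68%, against 2.48% of all genes) and at least 4-fold lower values in 27 (5.68%, against 1.62%), with a median log2 ratio of −0.05 (0.04 under either scaling of the libraries). The count of 8 became 18 and 19 with pseudocounts of 0.1 and 0.01. PYL4, which is outside the term, would take place 3 among its genes by log2 ratio. By level it would take place 28 in drought and place 373 in control. Over all 721 tested genes with any abscisic acid term, 13 were at least 4-fold higher (1.8%, against 2.48% of all genes). At least 4-fold lower values were found in 34 of them (4.72%, against 1.62%), and PYL4 took place 3.

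Neither of the 2 genes of the response term above PYL4 carries the receptor activity term or the signaling pathway term. Phvul.002G008400 (XTH6), which encodes a cell wall xyloglucan enzyme, was at 1.84 FPKM in control and 90.5 FPKM in drought (log2 ratio 5.01). Phvul.009G118900, with the term water channel activity, was at 3.66 and 144 FPKM (log2 ratio 4.96). A gap separates PYL4 from the next gene below it, Phvul.009G133600, at 5.88 and 60.4 FPKM (log2 ratio 3.16). Phvul.003G230100 followed at 5.09 and 43.3 FPKM (log2 ratio 2.86), and Phvul.002G250600 at 3.23 and 26.2 FPKM (log2 ratio 2.68).

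At the other end of the term, levels were low in drought. Phvul.007G069800, which also carries the signaling pathway term, was at 144 FPKM in control and 4.14 FPKM in drought (log2 ratio −4.82). Phvul.001G205900 was at 52.6 and 1.45 FPKM (log2 ratio −4.45), and Phvul.004G007100, with a galactinol-sucrose galactosyltransferase term, at 35.8 and 0.957 FPKM (log2 ratio −4.23). Phvul.005G018800 at 20.9 and 0.404 FPKM (log2 ratio −3.96) and Phvul.011G200200 at 13.0 and 0.285 FPKM (log2 ratio −3.44) both carry a circadian rhythm term. Of the other genes that the study named from these libraries, AFP1 (Phvul.003G042000), in Arabidopsis a repressor of abscisic acid responses that binds the transcription factor ABI5, was at 20.6 and 2.44 FPKM (log2 ratio −2.65). XERICO (Phvul.006G005100), a RING-H2 protein that raises abscisic acid levels in Arabidopsis, was at 146 and 7.73 FPKM (log2 ratio −4.07).

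**Figure D5:**
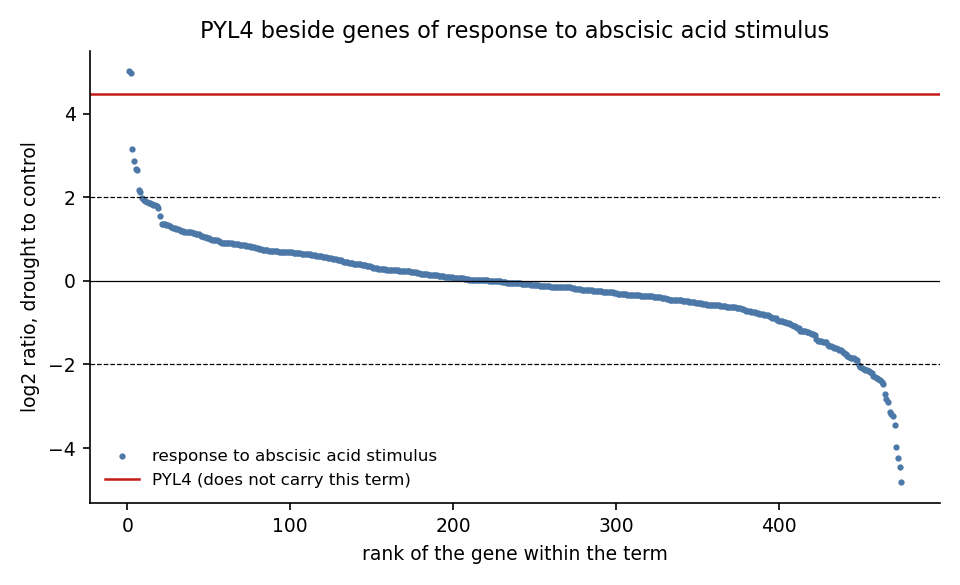
The 475 tested genes of the response term are ordered by log2 ratio of drought over control, with the rank on the x axis and the ratio on the y axis, the level of PYL4 is the red line, and dashed lines mark 4-fold. Only XTH6 at 5.01 and Phvul.009G118900 at 4.96 lie above PYL4 at 4.46, and the next gene is at 3.16.

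Response to water deprivation and stomatal movement are processes in which abscisic acid acts, and PYL4 carries the term of neither. Of the 342 tested genes of response to water deprivation, 5 were at least 4-fold higher (1.46%, against 2.48% of all genes) and 21 at least 4-fold lower (6.14%, against 1.62%), with a median of −0.06. Of the 77 tested genes of stomatal movement, 2 were at least 4-fold higher (2.6%, near the share of all genes) and 4 at least 4-fold lower (5.19%), with a median of −0.14.

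The genes whose pair of levels was most like that of PYL4 were found by distance in log2(FPKM + 1) over the 2 libraries. The nearest, at a distance of 0.317, was Phvul.006G107300, with a carboxylesterase term, at 3.62 FPKM in control and 138 FPKM in drought. Next came the water channel gene Phvul.009G118900, at a distance of 0.357, and Phvul.011G107000, with a xyloglucosyl transferase term, at 3.26 and 95.5 FPKM and a distance of 0.434. Phvul.003G166500, with a copper ion binding term, was at 5.68 and 92.4 FPKM (distance 0.466), and Phvul.008G142500, with a lipid transport term, at 6.31 and 96.2 FPKM (distance 0.531). With 2 libraries this likeness says only that the levels were close.

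Markers of leaf and stem were compared between the 2 libraries. The 149 photosynthesis genes, markers of leaf tissue, summed to 35069 FPKM in control plants and to 47616 FPKM under drought. Over the 141 of them that were tested the median log2 ratio was 0.33, with 2 at least 4-fold higher (1.42%) and 1 lower (0.709%). The 78 genes of secondary cell wall biogenesis, markers of stem and xylem, summed to 471 and 833 FPKM. Over the 55 of them that were tested the median log2 ratio was 1.35. Of these 55, 13 were at least 4-fold higher (23.6%) and none lower, where the shares of all genes were 2.48% and 1.62%. Their median level was 0.538 FPKM in control and 5.06 FPKM in drought. Most of them thus passed the minimum of 1 FPKM only through the drought library, which favours higher ratios in this set. The part of these tissue differences in the PYL4 value was not tested.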

How the data were processed

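RNA was sequenced by the authors from aerial tissue of PS, control and drought, with 1 library value per condition in the table. Reads were handled with CASAVA 1.8.2 and FastQC, aligned with TopHat and quantified with Cuffdiff, per the submitters' processing notes. The deposited values are FPKM per gene, computed by the authors. The labels speak of several libraries per treatment, but the table holds 1 value per gene and condition, and reads per gene are not given, so no interval or p-value was computed. The columns of the authors' own comparison (fold change, test statistic, p and q) were not used.

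The log2 ratio was log2((drought FPKM + 1)/(control FPKM + 1)). Genes with at least 1 FPKM in either library were tested, and a gene was called past 4-fold. Ranks run from the highest ratio. Scripts used Python 3.11.15, pandas 2.3.3 and numpy 2.4.6, with figures in matplotlib 3.10.9, and were tested on simulated data. Alternatives were other pseudocounts, scalings, filters, fold limits and lists.

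Lists were built from the GO terms of the table. Product names from RefSeq had been planned, but no identifier of the table matched it, so the GO lists were made after the table was opened. GO terms are missing for 2627 genes, and 227 lists of terms stop at 1024 characters. The members and lists were chosen with earlier results of these data known. Genes named are PYL4, all receptors, all members of lists of at most 20 genes or those past 4-fold in longer ones (small lists in part by range), the 5 highest and 5 lowest genes of the response term and the 3 on each side of PYL4, the 5 genes nearest in level, the 2 loci on each side, and the abscisic acid genes with symbols in the study. In longer lists some members past 4-fold are given by count only. Phvul.009G227800 was named after its values were seen. RT-PCR was not analysed here, and no sequence is printed.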

Additional observations from a re-analysis of the deposited data

How the results depend on the processing

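Of 183 values recomputed under alternatives for 26 results, 142 stayed within 0.1 in log2 ratio or 1.5 times in a count or rank. The other 41 moved further. Of the values past 4-fold 0 changed sign, but these settings could not have changed one. A pseudocount keeps the sign of a ratio, and no scaling or centring on the median moved these ratios by more than 0.1. Some of the 142 could hardly move either, such as the count of negative-regulator phosphatases lower in drought. The log2 ratio of PYL4 was 4.72 with a pseudocount of 0.1 and 4.75 with 0.01, its place among all genes 72 and 158, the count of response genes at least 4-fold higher 18 and 19, and the median of the 6 negative-regulator phosphatases −1.93 and −1.94. With libraries scaled to an equal sum that phosphatase median was −1.66 and the receptor median 0.74. With no filter the median of all 12 phosphatases was −0.77, against −1.53. The receptor median was 0.50 with no filter, 1.69 with at least 5 FPKM in either library, and 0.48 without PYL4, an alternative added after seeing the data. A 2-fold limit gave 51 of the 475 tested response genes higher and 70 lower. Of all 19661 genes, 2309 (11.7%) were higher and 1298 (6.6%) lower at that limit. Among genes of the signaling pathway term, also added later, PYL4 took place 1. The median of all genes was 0.06 under either scaling, by upper quartile or by sum. No paired analysis was possible because each condition has 1 library, and no replicate could be left out. The medians of transcription factors (−0.06) and hydroxylases (0.39) changed sign with at least 5 FPKM. That of transport genes changed sign (−0.14 and −0.26) with at least 1 FPKM in both libraries or 5 in either. Those of the response and signaling terms did so too, at 0.04 and 0.03 under upper quartile scaling. With libraries scaled to an equal sum both were 0.04. The cause of these changes of sign was not tested. How precise each value is remains unknown, because reads per gene are not given.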
